A study of Mus musculus with 19 samples.

Results

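The 8 genes described here encode the Mef2 transcription factors (Mef2a, Mef2b, Mef2c and Mef2d) and the class IIa histone deacetylases that bind them (Hdac4, Hdac5, Hdac7 and Hdac9). All members of both families were taken by name, 4 of each, out of 21000 protein-coding genes with a curated RefSeq transcript in the mouse. For each gene, the peaks of 5-hydroxymethylcytosine (5-hmC) that overlapped the span of its curated transcripts plus 20 kb upstream were collected. 5-hmC is made from methylated cytosine by the TET enzymes and lies mainly on the bodies of genes.

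The Mef2 proteins bind a short AT-rich DNA element and activate muscle genes, and in cardiomyocytes (CMCs) they serve both the formation of the sarcomere and the response to load. Class IIa deacetylases have little enzymatic activity of their own. They bind Mef2 through their amino-terminal part and recruit corepressors that hold its target genes silent. Kinases activated by calcium and stress phosphorylate them, 14-3-3 proteins then carry them out of the nucleus, and Mef2 is released. This switch is well known in pathological hypertrophy.

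The samples were CMCs of male C57BL/6J mice at 4 points, with 2 biological replicates at each: embryos at E14.5, neonatal pups of 1 to 2 days, adults of 2 months, and adults 1 week after transverse aortic constriction (TAC), which narrows the aorta and loads the left ventricle. The labels name no transgene or deletion in any group. Embryonic and neonatal CMCs were digested from excised ventricles and freed of adherent cells by preplating, whereas adult and TAC CMCs were obtained by perfusion of the left ventricle and sedimentation, so that age, source and isolation cannot be told apart. An antibody to 5-hmC pulled down sheared DNA (hMeDIP), the recovered fragments were sequenced, and the peaks called in each replicate against its input were the data. The lists give positions without reads, and depth was not used here. Neither more 5-hmC in each cell and more cells carrying it, nor a deeper library and a more enriched one, can be told apart.

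The 8 lists held 104215 to 153637 peaks and covered 2.63% to 4.76% of the autosomes, most in neonatal replicate 2 and least in TAC replicate 2. The latter library stood apart. Inside the 8 gene regions, 1.43% to 7.07% of peaks had a centre within 150 bp of one in the other list whenever TAC replicate 2 was in the pair, and 9.29% to 49% when it was not. Centres 400 to 700 bp apart made up 11.4% to 24.2% of peaks in pairs with TAC replicate 2 and 2.86% to 15.4% in other pairs. The differences from adult to TAC are therefore also given without it, and a value that needs both TAC lists rests on it. According to the file headers, the precipitated library was scaled to its control in both TAC lists and in the second replicate of the neonatal and adult points, and the control to the precipitated library in the other 4.

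The stretches of sequence on which the descriptions below turn are printed here from the GRCm38 reference (mm10), each read in the direction of its gene. Each is a window of 200 bases centred on the part of a region that the largest number of lists covered, and the capitals mark CpG, the dinucleotide in which most methylated and hydroxymethylated cytosine lies. The first Mef2a window was covered in postnatal lists and the first Mef2c window in lists other than the adult ones. The first pair of Hdac4 windows was covered in adult lists alone, and the other 3 windows came from regions present in all 8 lists.
Mef2a, before the TSS, chr7:67374305-67374504, minus strand: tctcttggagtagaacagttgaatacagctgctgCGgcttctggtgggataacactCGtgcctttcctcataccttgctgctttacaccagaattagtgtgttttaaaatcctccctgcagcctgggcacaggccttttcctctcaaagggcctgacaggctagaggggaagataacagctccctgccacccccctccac
Mef2c, before its 4th TSS, chr13:83571385-83571584, plus strand: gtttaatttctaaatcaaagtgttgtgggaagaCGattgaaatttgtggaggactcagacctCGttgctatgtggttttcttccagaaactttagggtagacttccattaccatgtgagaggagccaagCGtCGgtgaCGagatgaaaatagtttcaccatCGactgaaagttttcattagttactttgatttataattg
Hdac4, intron 24, adult lists alone, chr1:91937864-91938063, minus strand: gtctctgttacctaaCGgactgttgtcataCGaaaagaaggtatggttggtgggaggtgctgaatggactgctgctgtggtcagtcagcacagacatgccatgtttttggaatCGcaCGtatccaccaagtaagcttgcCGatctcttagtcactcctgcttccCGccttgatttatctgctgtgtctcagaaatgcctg
Hdac4, intron 24, neighbouring adult region, chr1:91939035-91939234, minus strand: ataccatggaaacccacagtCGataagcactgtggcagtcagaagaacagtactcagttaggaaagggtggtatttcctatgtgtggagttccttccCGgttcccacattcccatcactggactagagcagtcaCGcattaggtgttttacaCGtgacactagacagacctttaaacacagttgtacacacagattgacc
Mef2a, intron 1, chr7:67366913-67367112, minus strand: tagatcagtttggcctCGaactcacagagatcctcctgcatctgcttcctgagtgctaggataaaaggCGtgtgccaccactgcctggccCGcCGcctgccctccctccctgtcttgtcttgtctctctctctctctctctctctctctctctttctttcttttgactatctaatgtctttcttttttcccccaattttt
Mef2c, intron 3, chr13:83585093-83585292, plus strand: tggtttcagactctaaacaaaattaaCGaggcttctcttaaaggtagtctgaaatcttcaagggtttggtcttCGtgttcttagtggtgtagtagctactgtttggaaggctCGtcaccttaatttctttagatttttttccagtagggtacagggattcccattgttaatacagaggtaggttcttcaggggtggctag
Hdac4, intron 1, 8 lists, chr1:92160301-92160500, minus strand: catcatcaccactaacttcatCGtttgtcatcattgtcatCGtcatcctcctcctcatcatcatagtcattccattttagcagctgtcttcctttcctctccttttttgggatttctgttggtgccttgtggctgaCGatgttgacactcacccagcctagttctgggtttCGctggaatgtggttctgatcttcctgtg

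Coverage, the percentage of a gene's region lying under peaks, differed widely among the members. Hdac7 had the highest mean over the 8 lists (21.7%), followed by Hdac5 (16.1%) and Mef2d (14.1%). Hdac4 (8.51%), Mef2a (6.8%), Mef2c (6.56%) and Mef2b (4.51%) lay lower, and Hdac9 had the lowest mean (2.3%). The ranges over the 8 lists of neighbours in this order overlapped throughout. Hdac7 ranked between the 82.1 and the 98.8 percentile of protein-coding genes in each list, and Hdac9 between the 35.3 and the 46.8 percentile. Region width differed as well, from 34.7 kb for Mef2b to 890 kb for Hdac9, and the widest region was the one with the lowest mean, while the most compact was not the highest.

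**Figure D1:**
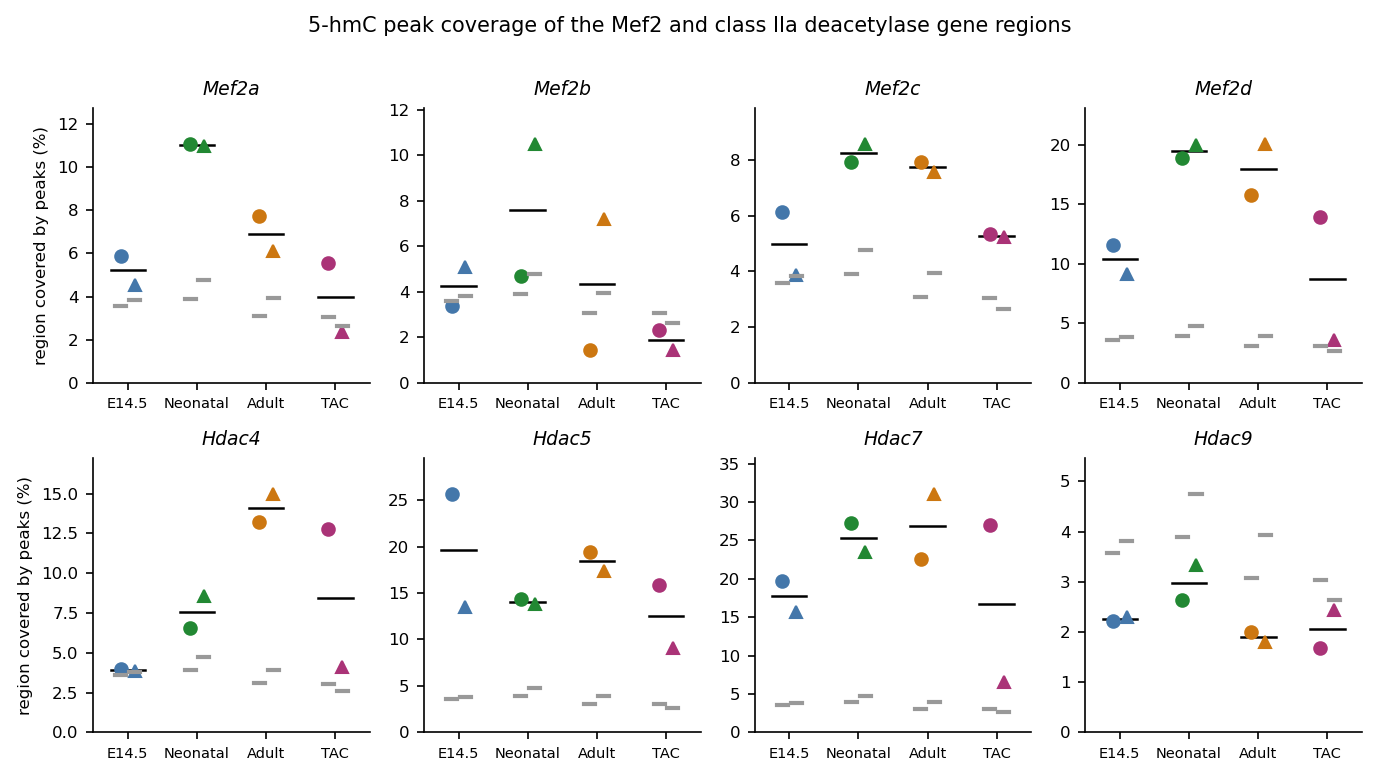
Percentage of each gene region covered by 5-hmC peaks (y axis, each panel on its own scale from 0) at the 4 points. Circles are replicate 1, triangles replicate 2, black lines the mean of the pair, and grey ticks the percentage of the autosomes covered by the same list (2.63% to 4.76%). Both neonatal values of Mef2a (11.1% and 11%) lay above its other 6, Hdac4 stood highest in both adult lists (13.2% and 15%), and Hdac9 lay below the autosomal level in all 8 lists.

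No gene of the 19687 with a peak passed the test across the 4 points. By limma on log2(percent covered + 1), with Benjamini-Hochberg adjustment over all genes, 0 genes (0%) had an adjusted p under 0.05 over the 4 points or in any of the 3 transitions. At an unadjusted p under 0.05, limma gave 2450 genes over the 4 points (12.4%), 1269 between E14.5 and neonatal (6.45%), 1937 between neonatal and adult (9.84%) and 1399 between adult and TAC (7.11%). None of the 8 genes was among them. A one-sided exact permutation test, which divided the lists into pairs in every possible way and whose smallest possible p is 0.00952, gave 1517 genes at an unadjusted p under 0.05 (7.71%) and 0 after adjustment (0%). Mef2a alone of the 8 was among the 1517, with an unadjusted exact p of 0.0381 and an adjusted p of 0.577. Nothing below is therefore called changed. The values are described by whether both replicates of one point lay above both of another, and such separations are read against their share among all genes.

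Between E14.5 and neonatal CMCs, Mef2a, Mef2c, Mef2d, Hdac4, Hdac7 and Hdac9 were higher without overlap, 6 of 8 members against 26.3% of all genes, and 0 members were lower against 6.93%. From neonatal to adult CMCs, Hdac4 and Hdac5 were higher (2 of 8, against 14.4% of all genes) and Mef2a, Mef2c and Hdac9 lower (3 of 8, against 23.5%). For Mef2c the margin was minimal, with 14480 bp covered in neonatal replicate 1 against 14474 bp in adult replicate 1. From adult to TAC, 5 of 8 were lower, namely Mef2a, Mef2c, Mef2d, Hdac4 and Hdac5, against 22.7%, and 0 were higher, against 6.77%. TAC replicate 1 by itself lay below both adult lists for the same 5 genes and for Hdac9, 6 of 8 against 30.9%. Successive transitions share the lists of the point between them. The lists also differed in their overall coverage: the median log2 difference of all genes was 0.18, -0.13 and -0.20 in the 3 transitions, and 0.01, 0.03 and 0.00 once each list was scaled to its autosomal coverage. Scaled in this way, E14.5 and neonatal lists overlapped for Hdac7, and neonatal and adult lists for Mef2a and Mef2c. Scaled adult lists lay above neonatal lists also for Mef2d (18.5% and 18.4% against 17.4% and 15.1%) and Hdac7 (26.3% and 28.4% against 25% and 17.8%). Scaled adult and TAC lists overlapped for Mef2a, Mef2c, Hdac4 and Hdac5. Mef2d alone of the 5 stayed lower after TAC, at 16.4% and 4.92% against 18.5% and 18.4% in adults. Scaled TAC replicate 1 lay below both adult lists for Mef2c and Mef2d among the 6. The scaled share among all genes was not counted.

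**Figure D2:**
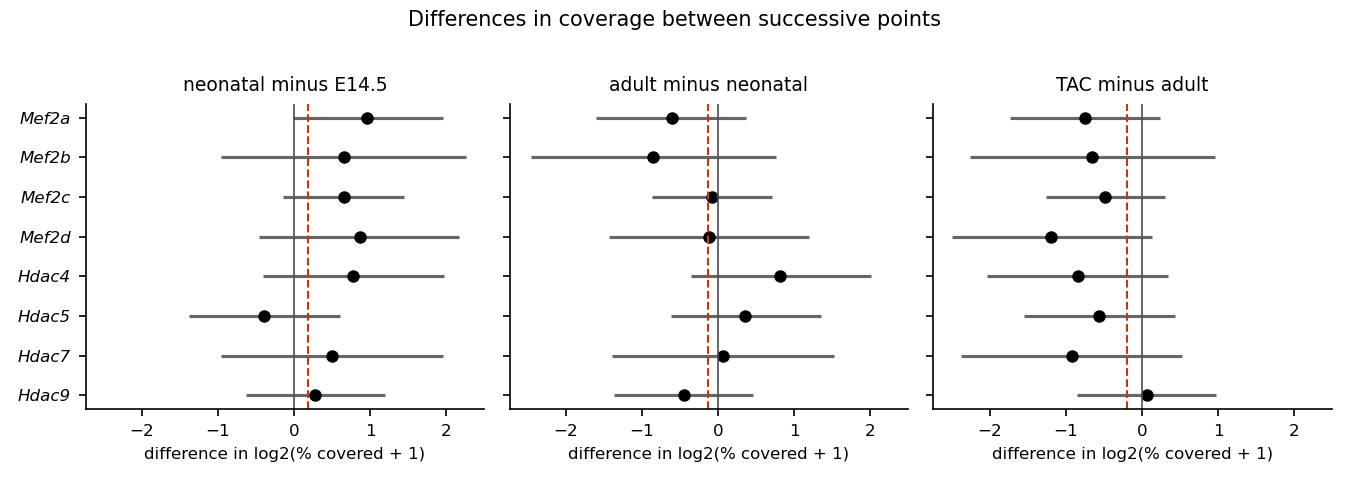
Difference in log2(percent covered + 1) between successive points for each of the 8 genes. Points are limma estimates, bars their 95% intervals and the dashed red line the median of all genes (0.18, -0.13 and -0.20). Each of the 24 intervals includes 0, and Mef2a between E14.5 and neonatal came nearest to excluding it (-0.02 to 1.95).

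Mef2a encodes the main Mef2 factor of the adult heart (chr7:67231163-67372858, minus strand). Its region was covered to 5.89% and 4.55% in the E14.5 lists, 11.1% and 11% in the neonatal lists, 7.72% and 6.13% in the adult lists and 5.56% and 2.37% in the TAC lists. The neonatal lists were the highest pair and differed little from each other, and TAC replicate 2 was the lowest list. The neonatal mean was 11.1% ± 0.0827 (SD, n = 2) against 5.22% ± 0.942 at E14.5, a log2 difference of 0.96 with an SE of 0.41 and an adjusted p of 0.774 by limma. From neonatal to adult the log2 difference was -0.61 (SE 0.41), and from adult to TAC it was -0.75, or -0.27 without TAC replicate 2. Both neonatal lists lay above the other 6 for Mef2a, Mef2c and Hdac9, 3 of 8 members against 6.39% of all genes, but for 0 of 8 against 2.1% once lists were scaled to autosomal coverage. The scaled Mef2a values were 10.3% and 8.32% in neonatal lists and 9% and 5.61% in adult lists, which overlap.

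The peaks of Mef2a numbered 124 over the 8 lists, of which 104 had their centre in an intron and 10 upstream. Intron 1, of 22.8 kb, had 3 and 4 peaks at E14.5, 7 and 6 in pups, 5 and 2 in adults and 3 and 1 after TAC. A region there, chr7:67365458-67368385 and centred 5.94 kb after the transcription start site (TSS), was the only one of the gene present in all 8 lists, and its centre is the intron 1 window printed above. All 200 bases of that window are marked as repeat in the reference. The window before the TSS comes from chr7:67373707-67375966, centred 1.98 kb upstream of it. All 6 postnatal lists held peaks there and neither E14.5 list did. No base of the region was covered by more than 5 of these lists. Over the whole 20 kb upstream, coverage was 0% in both E14.5 lists and 2.5% to 8.85% in the other 6. Across the genome, 519 of 403489 merged regions had this pattern (0.129%), and among the members 2 of 390 did (0.513%), the other being at the 3′ end of Hdac4.

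**Figure D3:**
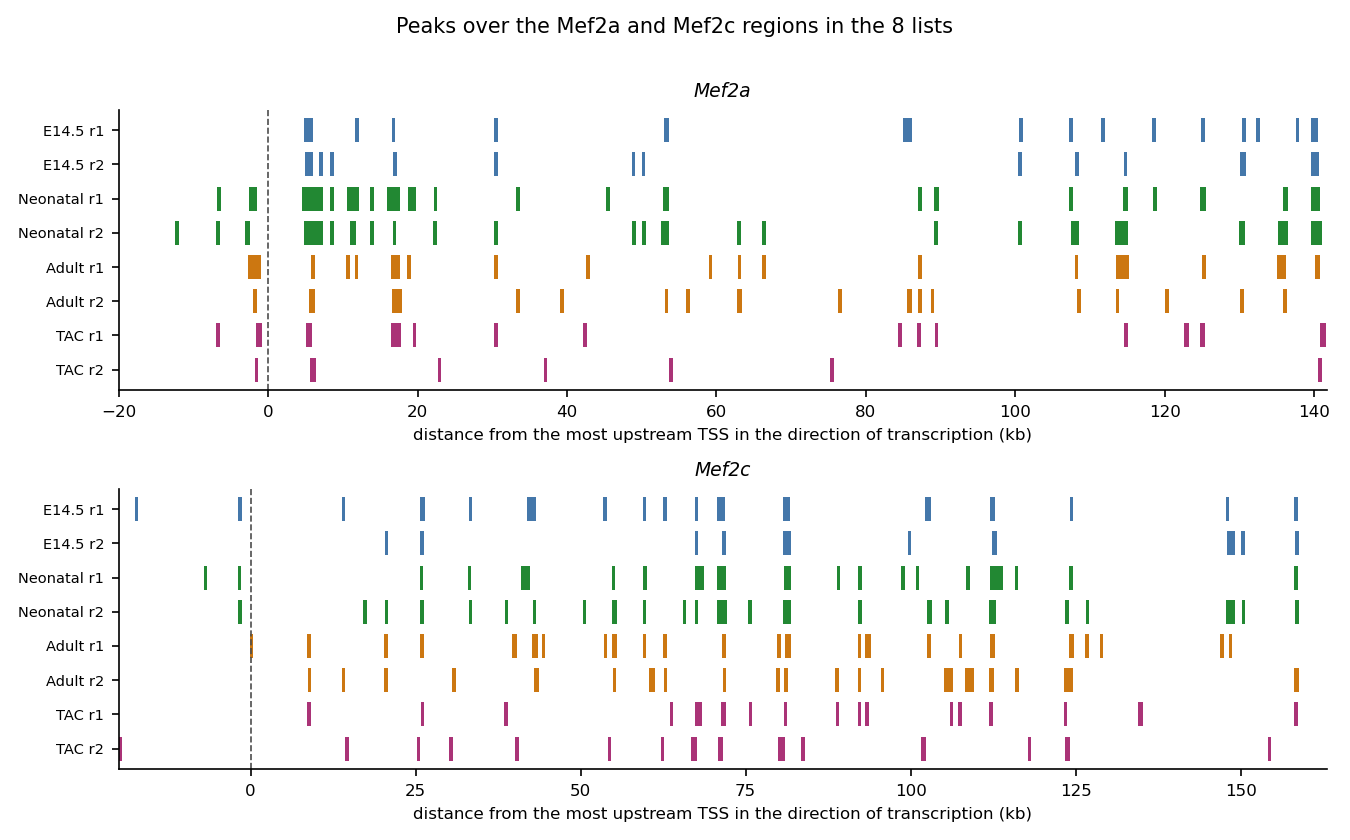
Peaks of the 8 lists (rows, coloured by point) over the Mef2a and Mef2c regions, by distance in kb from the most upstream TSS (dashed line) along the direction of transcription; bar widths are peak widths to scale. For Mef2a, the 6 postnatal lists held peaks around -1.98 kb and the E14.5 lists did not. For Mef2c, peaks around 67.7 kb were present in all lists but the adult pair, while those around 71.4 and 80.8 kb were present in all 8.

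Mef2c encodes the factor needed first in the embryo, in the heart field and in looping of the heart tube (chr13:83504034-83667079, plus strand). Its coverage was 6.13% and 3.86% at E14.5, 7.91% and 8.58% in pups, 7.91% and 7.56% in adults and 5.32% and 5.23% after TAC. Neonatal and adult lists lay together at the top and met at 7.91% when rounded. The log2 difference was 0.65 (SE 0.33) from E14.5 to neonatal, -0.08 from neonatal to adult and -0.48 (SE 0.33) from adult to TAC, all above an adjusted p of 0.05 by limma. The second of these became 0.19 after scaling to autosomal coverage. The TAC replicates differed little here, and without TAC replicate 2 the last difference was -0.46. Of its 146 peaks, 125 lay in introns. Intron 2, the widest at 55.1 kb, held 56 of them and intron 4 held 33.

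Mef2c has 4 annotated TSSs, the most downstream of them at position 83573607. A region of 1918 bp before it, chr13:83570811-83572728, held peaks in both E14.5, both neonatal and both TAC lists and in neither adult list. All 6 of these lists covered the same 266 bp, from which the Mef2c window with 6 CpGs was taken. A neighbouring region after the TSS, chr13:83574684-83576160, held peaks in all 8 lists, as did chr13:83583646-83585924 in intron 3. All 8 lists shared a base in the former and at most 7 in the latter. Genome-wide 723 merged regions were present in the 6 other lists and absent from the adult ones (0.179%), and 1 of the 390 regions of the 8 genes was (0.256%), a share near that of the genome. Within 1 kb of the most upstream TSS, a peak was found in adult replicate 1 alone, and within 1 kb of the most downstream in neonatal replicate 1 alone. The 2nd and 3rd TSSs each had a peak within 1 kb in 4 lists, namely E14.5 replicate 2, neonatal replicate 2 and both adult lists. Antisense transcripts overlap the gene, and a peak cannot be assigned to a strand: 33 peak centres lay in Gm52043.

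Mef2d had the densest coverage of the factors (chr3:88142372-88172091, plus strand). Its values were 11.6% and 9.12% at E14.5, 18.9% and 20% in pups, 15.8% and 20.1% in adults and 13.9% and 3.61% after TAC. Both E14.5 lists lay below all neonatal and adult lists, while the TAC replicates differed from each other more than any other pair of the gene. The log2 difference was 0.86 (SE 0.55) from E14.5 to neonatal and -1.19 (SE 0.55) from adult to TAC, the latter -0.34 without TAC replicate 2. Regions in all 8 lists lay over exon 9 and its surroundings (chr3:88160831-88165265) and at the 3′ end (chr3:88166964-88171525). At most 5 lists shared a base in the first of these regions and at most 6 in the second. Upstream coverage was 10% and 8.93% at E14.5, 8.24% and 13.5% in pups, 7.51% and 12.6% in adults and 5.01% and 0.69% after TAC, so that the TAC pair was the lowest.

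Mef2b is compact and has few peaks (chr8:70152761-70167488, plus strand). Coverage was 3.38% and 5.07% at E14.5, 4.69% and 10.5% in pups, 1.44% and 7.21% in adults and 2.33% and 1.44% after TAC. Replicates of a point differed as much as the points did, and each list held 1 to 5 peaks. The log2 difference from E14.5 to neonatal, 0.65 with an SE of 0.67, turned to -1.36 without the upstream 20 kb. From adult to TAC it was -0.65, or -0.43 without TAC replicate 2. Of the 21 peaks, 10 lay upstream, and 9 centres fell within Rfxank, which occupies part of the upstream stretch and encodes a cofactor that binds class IIa deacetylases. Both adult lists, and no other list, held a peak in intron 1 at chr8:70156691-70157259.

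Hdac4, known for restraining Mef2 in muscle and cartilage, was the 1 member whose lists stood higher at each successive point up to the adult, joined by Mef2d after scaling to autosomal coverage (chr1:91928779-92180341, minus strand). Its coverage was 4% and 3.87% at E14.5, 6.54% and 8.56% in pups, 13.2% and 15% in adults and 12.8% and 4.12% after TAC. The 3 developmental pairs did not overlap, and the TAC replicates were split between the adult and the E14.5 level. The mean was 3.94% ± 0.0924 (SD, n = 2) at E14.5, 7.55% ± 1.43 in pups, 14.1% ± 1.28 in adults and 8.48% ± 6.17 after TAC. The log2 differences were 0.78 from E14.5 to neonatal (adjusted p = 0.819, limma), 0.82 from neonatal to adult (adjusted p = 0.646) and -0.84 from adult to TAC (adjusted p = 0.715), each with an SE of 0.50. Without TAC replicate 2 the last was -0.12.

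The order adult above neonatal above E14.5 without overlap was found for 1 of 8 members and for 4.68% of all genes. Scaled to autosomal coverage, it was found for Hdac4 and Mef2d, 2 of 8 against 7.01%. By scaling in peak calling, the Hdac4 values were 4% and 3.87% at E14.5, 6.54% in pups and 13.2% in adults where the control was scaled. Where the precipitated library was scaled they were 8.56% in pups and 15% in adults, with no E14.5 list, and with single lists at these points no test was made. Adult lists lay above E14.5 lists without overlap for Mef2a, Mef2c, Mef2d, Hdac4 and Hdac7 (5 of 8, against 27% of all genes), and after scaling for these without Mef2a (4 of 8, against 30.4%). Ranked within each list, Hdac4 was at the 56.7 and 55.1 percentile of genes at E14.5, 70 and 71.7 in pups, 89.2 and 85 in adults and 88.6 and 64.4 after TAC.

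**Figure D4:**
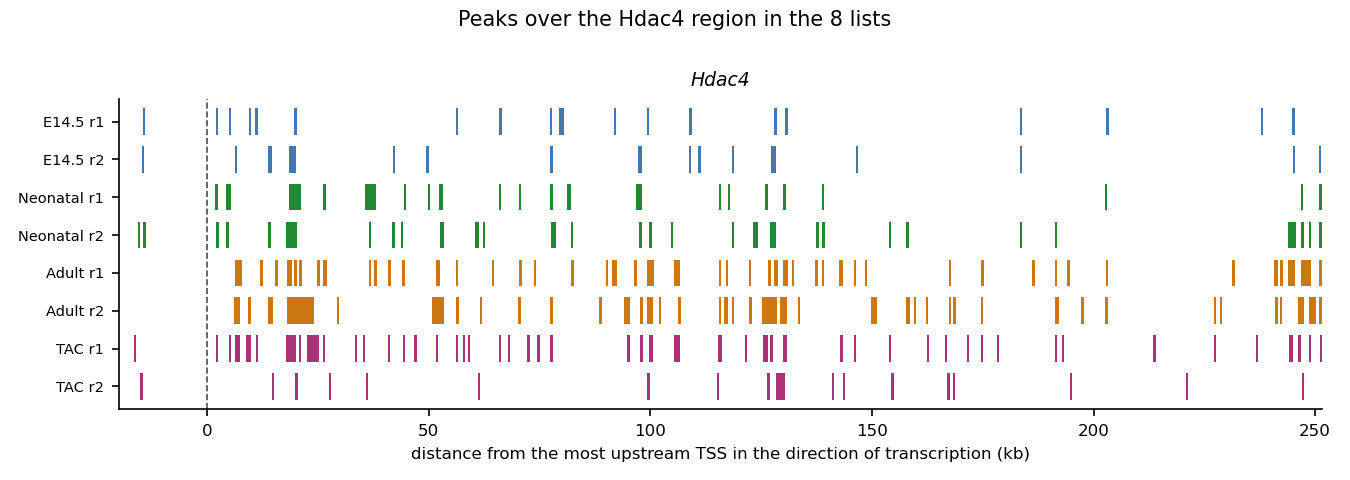
Peaks of the 8 lists over the Hdac4 region, by distance in kb from its TSS (dashed line) along the direction of transcription, with bar widths to scale. The adult lists held 47 and 40 peaks and TAC replicate 1 held 50, spread over the whole gene, against 16 to 30 in the E14.5 and neonatal lists and 18 in TAC replicate 2; no list had a peak at the TSS.

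The additional adult peaks of Hdac4 were spread over its introns rather than gathered at one site. Intron 2, of 93.3 kb, held 7 peaks in each E14.5 list, 11 and 13 in pups, 18 and 15 in adults and 20 and 4 after TAC. Intron 1, of 31.8 kb, held 5 and 3 at E14.5, 4 and 4 in pups, 8 and 5 in adults and 9 and 3 after TAC. Stretches covered in both replicates amounted to 1.07% of the region at E14.5, 2.48% in pups, 5.69% in adults and 0.511% after TAC, in 7, 11, 24 and 7 pieces, the TAC value resting on TAC replicate 2. Of 98 merged regions, 12 were present in both adult lists and absent from both E14.5 lists. For all 8 genes the count was 26 of 390 (6.67%), and across the genome 3.32% of merged regions had the pattern.

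Both adult lists and no other list held 4 Hdac4 regions. A pair of them lay next to each other in intron 24, at chr1:91937647-91938281 and chr1:91938745-91939562, about 241 to 242 kb from the TSS, and the other two in intron 2, at chr1:92057498-92058028 and chr1:92062784-92063653. The intron 24 windows printed above hold 6 and 4 CpGs and no repeat. In all, 6 of the members' 390 regions (1.54%) and 0.906% of all regions were found in the adult pair alone. When peaks up to 1 kb apart were joined, 2 such regions were left in Hdac4 and 3 over the 8 genes. At the other extreme, a region of 7654 bp in intron 1 (chr1:92154958-92162611) and one of 5866 bp in intron 3 (chr1:92049246-92055111) were present in all 8 lists. All 8 lists shared a base in the former and at most 5 in the latter. The intron 1 region also held the widest Hdac4 peak, 6078 bp in adult replicate 2. At the 3′ end, chr1:91930150-91934193, over exon 27, held peaks in the 6 postnatal lists and in neither E14.5 list. No base of this region was covered by more than 5 lists. E14.5 replicate 2 held 1 peak centred in exon 27 outside this region, so the exon as a whole was not free of peaks at E14.5.

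Hdac5, whose loss is known to sensitise the heart to pressure load, showed no separation between E14.5 and neonatal lists (chr11:102195747-102230172, minus strand). Coverage was 25.7% and 13.5% at E14.5, 14.3% and 13.8% in pups, 19.4% and 17.4% in adults and 15.9% and 9.13% after TAC. E14.5 replicate 1 was the highest list and its partner one of the lowest. The adult pair lay above the neonatal pair, with a log2 difference of 0.36 (SE 0.41) and an adjusted p of 0.765 by limma. From adult to TAC it was -0.56, or -0.19 without TAC replicate 2. In number, E14.5 lists held 14 and 10 peaks and all others 7 to 9. Regions in all 8 lists lay in intron 8 (chr11:102203633-102208414), where at most 7 lists shared a base, and intron 2 (chr11:102220569-102225881), where at most 5 did. In both E14.5 lists alone 2 regions were found, or 0 when peaks up to 1 kb apart were joined. Over the 8 genes this pattern was held by 4 of 390 regions (1.03%), against 0.738% in the genome.

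Hdac7, best known for its role in endothelial cells, had the highest coverage of the 8 (chr15:97792664-97844502, minus strand). The lists gave 19.7% and 15.7% at E14.5, 27.2% and 23.5% in pups, 22.6% and 31.1% in adults and 27% and 6.5% after TAC. E14.5 lists lay below neonatal and adult lists, and TAC replicate 2 was far below the rest. The log2 difference from E14.5 to neonatal was 0.50 (SE 0.61), and it turned to -0.25 when each list was reduced to the same number of peaks. The log2 difference from adult to TAC was -0.92 (SE 0.61) and 0.03 without TAC replicate 2, so its direction rested on that list. Mef2a, Mef2d, Hdac5 and Hdac7 were lower in TAC replicate 2 than in the other 7 lists, 4 of 8 members against 19.8% of all genes. Of its 109 peaks, 17 were at least 2 kb wide, and the widest, 7952 bp in neonatal replicate 1, lay in chr15:97806179-97816155. That region was present in all 8 lists, of which at most 7 shared a base. It reaches the most downstream of the 4 annotated TSSs, at position 97814863, within 1 kb of which 6 lists held a peak. Neighbouring transcripts share the region: 12 peak centres lay in Vdr, the vitamin D receptor gene.

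Hdac9, of which a form without the catalytic domain that still binds Mef2 is known, was sparsely covered (chr12:34047582-34917095, minus strand). Its values were 2.23% and 2.3% at E14.5, 2.64% and 3.33% in pups, 2.01% and 1.8% in adults and 1.69% and 2.43% after TAC. The neonatal pair lay above the other 6 lists by a narrow margin, and the 3 transitions gave log2 differences of 0.28, -0.45 and 0.07, each with an SE of 0.38. The last turned to -0.11 without TAC replicate 2. Coverage was uneven along the gene. The 157 kb of the shorter curated transcript were covered to 3.27% and 2.62% at E14.5, 6.11% and 5.6% in pups, 5.51% and 5.14% in adults and 3.51% and 3.03% after TAC. Neonatal and adult lists thus lay above E14.5 and TAC lists in this segment, which was singled out after its values were seen and was not tested. The 388 kb before it were covered to 1.16% to 3.2% and the 324 kb after it to 0.731% to 2.59%. In each of the 8 lists the middle segment had the highest coverage of the 3.

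Over the 8 genes, 1065 peaks were counted in the 8 lists, 362 in the Mef2 factors and 703 in the deacetylases. Introns held 83.2% of their centres, the upstream 20 kb 7.7%, coding exons 4.6% and 3′ untranslated exons 2.16%. The interval from 1 kb before to 100 bp after a TSS held 10 peaks (0.939%), which were in Mef2b, Mef2c and Hdac7. By list, the intron share lay between 78.5% and 87.3%, with both extremes among replicate 1 lists of different points. Peaks that touched were merged into 390 regions, of which 166 were in 1 list (42.6%, against 47% of regions in the genome) and 11 in all 8 (2.82%, against 1.65%). A merged region can chain peaks end to end, so all of its lists need not share a base.

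Promoters were taken by RefSeq as 250 bases before to 50 after a TSS. All 8 genes were matched, with 14 promoters in all, and 4 of them overlapped a peak in some list. How many of all promoters did was not counted, so no depletion is read from this. No list had a peak over the promoters of Mef2a, Mef2b, Mef2d, Hdac4, Hdac5 or Hdac9. The exceptions were the most upstream Mef2c promoter in 1 list and 3 of the Hdac7 promoters in 1 to 3 lists. Of the 14 windows, 8 were richer in CpG than the median of 2.33 per 100 bp over 32851 promoters, among them those of Mef2a (9), Mef2d (8) and Hdac4 (10.7). The 2 Hdac9 promoters had 0 and 1. Of the 4 promoters with a peak, 3 were not above the median, namely the Mef2c one (0.333) and Hdac7 ones with 2 and 1.67, and the fourth, of Hdac7, had 11.7. The MEF2 site, searched for by its full consensus, which reads alike on both strands, was found in 183 of all promoters (0.557%) and in those of Mef2a and Hdac5. In Hdac5 it begins 20 bases before the TSS and no list covered it. It is shown with its flanks, and capitals mark the site.
Hdac5, before the TSS, chr11:102230173-102230202, minus strand: gggtctgagcCTATTTTTAGctcggggtcg

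Away from the TSSs, the peaks lay on stretches richer in CpG than their surroundings. With 1 kb on each side of each TSS left out, Mef2c had a median over the 8 lists of 1.28 CpG per 100 bp under peaks and 0.675 to 0.712 elsewhere. Hdac4 had 1.14 under peaks and 0.674 to 0.739 elsewhere, and Hdac9 1.13 and 0.674 to 0.684. The density was higher under peaks in all 8 lists for Mef2a, Mef2c, Mef2d, Hdac4 and Hdac9, in 7 for Hdac5 and Hdac7, and in 4 for Mef2b. TAC replicate 2 gave the lowest density under peaks for Mef2a, Mef2c, Hdac4, Hdac5 and Hdac7. Of the 33 MEF2 sites in the Hdac9 region, 4 lay under a peak of some list, and of the 12 in Mef2c, 4 did. The Mef2c sites were each covered in 1 list, and 2 of them lay under the same peak of E14.5 replicate 2. The counts were 1 of 5 in Mef2a, 0 of 3 in Mef2d, 2 of 2 in Hdac4, 1 of 4 in Hdac5 and 1 of 1 in Hdac7. Mef2b had no site. The share of each region under a peak of any list is not given, so no enrichment is read from these counts. No test was made of the counts or the densities.

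**Figure D5:**
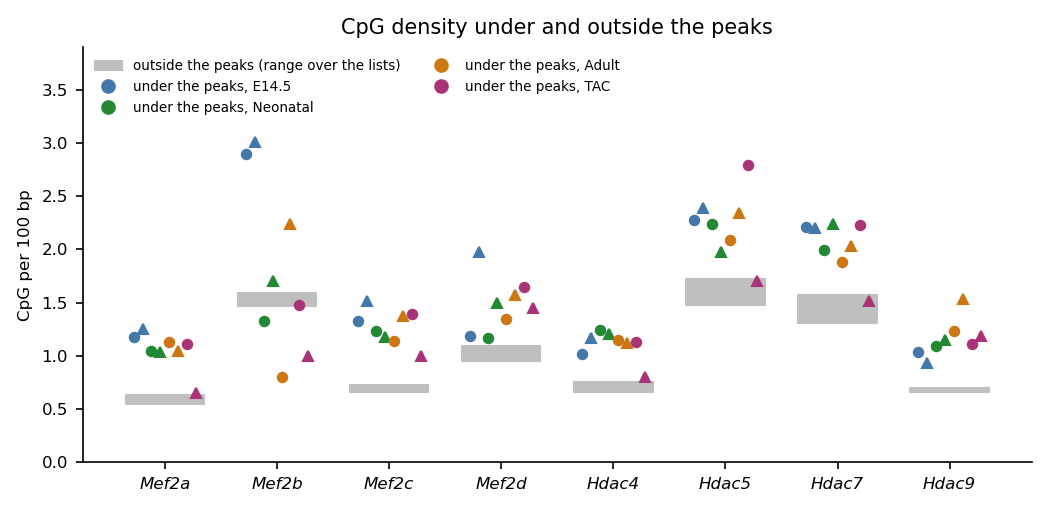
CpG per 100 bp of reference sequence under the peaks of each list (circles replicate 1, triangles replicate 2, coloured by point) and outside them (grey band, range over the 8 lists), with 1 kb on each side of each TSS left out. For Mef2c, Hdac4 and Hdac9 the 8 points lay above the band, while those of Mef2b lay on both sides of it.

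The lists hold DNA marks and not transcripts, so the CMC identity of the samples was checked here only through the coverage of marker genes. The study itself assessed purity by staining for sarcomeric actinin, which marked most but not all cells, and by RNA of marker genes. It also reported Vim, Col1a2 and Tcf21 free of peaks within the gene, while the values here include 20 kb upstream. The 5 CMC markers had a mean coverage of 16% to 22.5% at E14.5, 30.3% to 32.4% in pups, 12.6% to 20% in adults and 15.2% and 8.23% in TAC replicates 1 and 2. The 5 fibroblast markers lay between 1.6% and 4.53%, the 5 endothelial markers between 4.06% and 12% and the 3 leukocyte markers between 2.96% and 10.4%. Of the CMC markers, Myh6 was at 35.1% and 38.3% in pups but at 2.24% and 5.37% in adults. The latter lay below the endothelial mean of the same lists (5.85% and 6.34%), while Tnnt2, Actn2, Ryr2 and Ttn lay above it. The mean of the 3 smooth muscle markers was 5.63% to 5.95% in neonatal and 10.7% to 11.5% in adult lists. Tagln and Acta2 were higher in both adult lists, as Hdac4 was, and Myh11 was lower, at 4.8% and 5.56% in pups and 4.37% and 4.44% in adults. No marker was at 0 in every list, and the part of other cells in the members' values was not tested.

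The 75 genes of the wider pathway, in 7 lists, gave 0 calls in each transition by limma after adjustment, and 9, 8 and 5 of them had an unadjusted p under 0.05 in the 3 transitions, where 6.45%, 9.84% and 7.11% of all genes did. The 19 kinases that act on class IIa deacetylases had a median log2 difference of 0.43 from E14.5 to neonatal against 0.18 for all genes, with 10 higher without overlap and 0 lower. From adult to TAC their median was -0.32 against -0.20, with 9 lower against 22.7% of all genes. Without TAC replicate 2 it was -0.26 against -0.05, with 12 lower against 30.9%. Sik1, a salt-inducible kinase, had the highest mean coverage of these (31.4%). Of the 7 14-3-3 genes, 2 were higher in neonatal than in E14.5 lists, a share near that of all genes, and 1, Sfn, was lower. From adult to TAC 5 of the 7 were lower, with TAC replicate 2 or without it, and Ywhag had the highest mean (23%). Of the 12 genes for corepressors and other deacetylases, 5 were higher in neonatal lists. In calcineurin and NFAT signalling 6 of 9 were higher in neonatal lists, with Nfatc2 at the top (33.9%). Among MAP kinases that act on Mef2 it was 3 of 5, with Map2k6 at the top (10.2%). Among cofactors it was 6 of 10, with Mamstr at the top (26.1%), and among known Mef2 targets 6 of 13, with Ckm, muscle creatine kinase, at the top (23.9%). The share among all genes for this direction was 26.3%, as above, and these lists were chosen with earlier results of the same data known. Between neonatal and adult lists, 5 of the 12 corepressor and other deacetylase genes had an unadjusted limma p under 0.05, against 9.84% of all genes. Without overlap, 3 of the 12 were higher and 5 lower, against 14.4% and 23.5%. The remaining pathway genes under that threshold were 1 of the 7 14-3-3 genes and 2 of the 13 targets. From adult to TAC, 3 of the 12 corepressor and other deacetylase genes and 3 of the 9 calcineurin and NFAT genes were lower. The counts were 3 of 5 for MAP kinases, 6 of 10 for cofactors and 4 of 13 for targets. The calcineurin and target lists each had 1 gene higher, and the others 0. Without TAC replicate 2, their medians were -0.04, -0.21, -0.14, -0.13 and 0.10 in this order, with 3, 4, 3, 6 and 4 genes lower.

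The 3 genes whose coverage over the 8 lists was most like that of Mef2d, among 15739 genes of at least 5 kb, were Mical2 (Pearson r = 0.979), Mical3 (0.979) and Bcar1 (0.978). For Hdac7 they were Iars2 (0.964), Klc1 (0.963) and Nfatc2 (0.962). These correlations are descriptions over 8 lists that share their overall coverage, and each of the 6 genes, like Mef2d and Hdac7, had its lowest value in TAC replicate 2.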

How the data were processed

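Peak lists of 5-hmC from 8 hMeDIP libraries, 2 biological replicates at each of 4 points, were used. The authors aligned reads to mm10 with BWA 0.7.4-r385, marked duplicates with Picard, removed reads with a mapping quality under 10 and called peaks per replicate against input with HOMER 4.5 in histone mode. The deposited score is 1 for every peak, so peaks could not be ranked. Removal of poorly mapped reads lowers signal over repeats, and a deeper library can yield more peaks. Input and sh-control libraries and the study's expression data were not analysed here.

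Each gene's region was the span of its curated RefSeq transcripts (45756 transcripts, GRCm38) plus 20 kb upstream. The percentage covered was tested as log2(percent + 1) with limma 3.58.1 in R 4.3.3, all 8 libraries in a single fit with a trended prior, over 19687 protein-coding genes with a peak. P-values were adjusted by Benjamini-Hochberg. Intervals are at 95% and thresholds at 0.05. The study tested reads, which the lists do not hold. An exact permutation test was an alternative. Scripts ran in Python 3.11.15 and were tested on simulated data. Peaks were placed by their centre.

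The genes named are the 8 members, for each pathway list without a call the gene with the highest mean coverage (1 is not reported here), and the 3 genes most correlated with the best covered factor and deacetylase. Members and lists were chosen with earlier results of these data known. Limma p-values set differences against the spread between replicates, pooled over all points and moderated by the trended prior. The exact permutation p ranks the observed grouping among all divisions of the lists into pairs. Both rest on 2 replicates at each point.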

Additional observations from a re-analysis of the deposited data

How the results depend on the processing

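Of 400 estimates, the 24 differences of the 8 genes under up to 17 other settings, 380 kept their direction, 20 turned and none passed the threshold; the lowest adjusted p was 0.0545 (Mef2d, TAC against adult, without TAC replicate 1). The causes were not tested. For all genes, limma called 0 with the region used, and 294 over the 4 points, 54 from E14.5 to neonatal, 191 from neonatal to adult and 103 from adult to TAC when the region was the span without 20 kb upstream. Leaving out a replicate gave 0 to 439 over the 4 points and 0 to 374 from adult to TAC (both highest without TAC replicate 1), 0 to 205 from E14.5 to neonatal (205 without E14.5 replicate 2 and 168 without neonatal replicate 2) and 0 to 153 from neonatal to adult (without neonatal replicate 2); the lone library was then assumed to vary like the other points. Joining peaks up to 1 kb apart left 88 regions in 1 list in place of 166. Differences that turned, on the log2 scale, were: from neonatal to adult, Mef2c 0.19 and Mef2d 0.17 when scaled to autosomal coverage, Mef2b 0.00, Mef2c 0.32 and Mef2d 0.16 with equal numbers of peaks, Mef2b 1.25 on the span, and Mef2c 0.03 and Mef2d 0.18 in peaks per 100 kb. From E14.5 to neonatal, Hdac7 was -0.25 with equal numbers and -0.36 in peaks per 100 kb, and Mef2b -1.36 on the span. From adult to TAC, Hdac5 was 0.09 in peaks per 100 kb. Leaving out a replicate, the range was -0.83 to 0.05 for Hdac5 from E14.5 to neonatal; -0.16 to 0.29 for Hdac7, -1.73 to 0.02 for Mef2b and -0.28 to 0.04 for Mef2d from neonatal to adult; and -1.53 to 0.22 for Mef2b, -1.87 to 0.03 for Hdac7 and -0.11 to 0.24 for Hdac9 from adult to TAC, the last pair turning without TAC replicate 2. Correlations of the deviations of same-numbered libraries were 0.267 between E14.5 and neonatal and -0.0246 to 0.125 in the other pairs of points. Whether the numbers pair the libraries was not settled, and the replicate block gave 0 calls. The whole gene record as region, chosen after seeing the data, gave 0 calls. The lists hold no reads, and what depth limits was not examined here.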
